A study of Mus musculus with 3 samples.

Results

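The TEAD factors, their coactivators and their classic target genes were examined for binding of the transcription factor TFAP2A in mouse melanocytes. The 9 genes are the 4 TEAD factors (Tead1, Tead2, Tead3 and Tead4), the coactivators Yap1 and Wwtr1 (the gene of TAZ), and the targets Ctgf, Cyr61 and Amotl2, of 22367 protein-coding genes on the assembled chromosomes. A peak was taken for a gene when its summit, the position of highest signal, lay in the gene body or within 100 kb of it. By this rule 66 of 18528 peaks of replicate 1 and 64 of 21459 peaks of replicate 2 belonged to the 9 genes, a mean of 65 ± 1.41 (SD, n = 2 replicates). The rule used the position of a peak and not its enrichment.

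Chromatin bound by TFAP2A was precipitated with the antibody AP-2alpha (3B5) and sequenced (ChIP-seq) in 2 independent experiments, called replicates here, and 1 input sample was sequenced as the control. All 3 samples were of melan-a, an immortalised melanocyte line of genotype Cdkn2a tm1RDp/tm1RDp that was derived from normal embryonic skin. The cells received no experimental treatment, but the growth medium of every sample contained the phorbol ester 12-O-tetradecanoylphorbol 13-acetate and cholera toxin. With 1 line, 1 antibody and 1 condition, there were no groups to compare, and no expression was measured, so the identity of the cells was not checked against markers here. Comparisons below are between genes and between the replicates, they carry no p-value, and how deeply each replicate was sequenced is unknown.

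The Hippo pathway is a chain of kinases that holds the coactivators YAP and TAZ in the cytoplasm. When the chain is inactive, both enter the nucleus, where they do not touch DNA themselves but bind TEAD factors, which recognise the string GGAATG. Genes switched on in this way include the secreted proteins CTGF and CYR61 and the inhibitor AMOTL2, and many of the bound enhancers also hold AP-1 sites. TFAP2 proteins are a separate family that binds GC-rich palindromes and is needed in the neural crest, from which melanocytes arise.

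The sequence at the summit is shown first for the peaks on which the results turn, since it lets the sites be seen beside the fold enrichment. Each run has 121 bases of the plus strand of mm9, 5′ to 3′, with 60 bases to each side of the replicate 1 summit, and capitals mark matches on either strand to the TFAP2 consensus GCCNNNGG, the TEAD string GGAATG or the AP-1 string TGANTCA. Of each gene the shared peak of highest mean fold enrichment is shown, except for Wwtr1, whose strongest peak lay in a UTR and gives way to the next, and Ctgf, which had no shared peak. The Yap1 promoter is added as the member promoter that held both TFAP2 and TEAD sites.
Tead4, intron, chr6:128232259-128232379: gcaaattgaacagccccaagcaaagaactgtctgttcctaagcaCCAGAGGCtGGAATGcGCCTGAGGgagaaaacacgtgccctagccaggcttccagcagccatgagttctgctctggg
Tead1, intron, chr7:119967342-119967462: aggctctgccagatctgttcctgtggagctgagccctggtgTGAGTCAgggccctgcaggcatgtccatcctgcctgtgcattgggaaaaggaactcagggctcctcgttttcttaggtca
Tead2, downstream in Trpm4, chr7:52568486-52568606: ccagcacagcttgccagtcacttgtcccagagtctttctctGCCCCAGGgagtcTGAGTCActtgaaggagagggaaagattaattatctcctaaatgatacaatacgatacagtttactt
Tead3, upstream in Fkbp5, chr17:28556867-28556987: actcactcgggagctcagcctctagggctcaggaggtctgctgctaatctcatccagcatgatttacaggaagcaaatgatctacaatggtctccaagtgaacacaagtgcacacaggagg
Yap1, promoter, chr9:8004638-8004758: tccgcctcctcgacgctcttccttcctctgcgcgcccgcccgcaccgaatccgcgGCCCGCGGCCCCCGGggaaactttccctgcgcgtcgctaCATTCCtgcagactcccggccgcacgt
Yap1, downstream in Birc3, chr9:7855429-7855549: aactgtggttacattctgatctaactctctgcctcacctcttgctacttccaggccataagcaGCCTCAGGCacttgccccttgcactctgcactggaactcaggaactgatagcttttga
Wwtr1, intron, chr3:57307259-57307379: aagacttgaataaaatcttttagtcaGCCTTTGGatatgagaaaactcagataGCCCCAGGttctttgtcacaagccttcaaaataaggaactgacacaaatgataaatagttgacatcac
Cyr61, upstream, chr3:145332553-145332673: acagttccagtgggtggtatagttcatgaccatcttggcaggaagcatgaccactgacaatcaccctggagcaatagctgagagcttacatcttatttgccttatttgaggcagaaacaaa
Amotl2, downstream, chr9:102665916-102666036: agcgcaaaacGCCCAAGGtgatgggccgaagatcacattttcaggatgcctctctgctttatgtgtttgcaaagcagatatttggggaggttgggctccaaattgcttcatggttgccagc
Ctgf, upstream, replicate 1 only, chr10:24274068-24274188: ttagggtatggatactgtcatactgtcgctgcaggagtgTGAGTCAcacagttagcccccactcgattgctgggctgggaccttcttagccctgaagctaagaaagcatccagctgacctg
In the Tead4 run a TEAD string stood between 2 TFAP2 sites, with 1 base between each pair of neighbours. The runs of Tead1 and Ctgf held the AP-1 string TGAGTCA and no TFAP2 site, the Tead2 run held both, and the runs of Tead3 and Cyr61 held none of the strings. Sequences overlapping a UTR are not printed.

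Across the 9 genes, 52 of the 66 peaks in replicate 1 had a partner in replicate 2, with 1 bp of overlap or more, and are called shared. This was 78.8% of them, against 87.1% of all replicate 1 peaks on the assembled chromosomes. Counted from the other side, 53 of the 64 replicate 2 peaks were shared, where the share over that whole list was 76.0%. A further 14 peaks were in replicate 1 only and 11 in replicate 2 only. Shared peaks lay in the window of 8 of the 9 genes, beside 71.7% of protein-coding genes, and Ctgf was the gene without one. The 8 other genes held from 2 to 14 shared peaks each, where the median protein-coding gene held 2.

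Since long genes have long windows, peaks were also counted per 100 kb of window. The 9 genes had a median of 2.17 shared peaks per 100 kb, against a median of 0.816 over all protein-coding genes, whose upper quartile was 1.63 and 90th percentile 2.50. Amotl2 (3.69), Cyr61 (3.45) and Tead1 (3.27) had the highest densities and lay at percentiles 96.7, 96 and 94.8 of all genes. Wwtr1 (2.19), Tead4 (2.17) and Yap1 (1.83) followed at percentiles 84.8, 84.7 and 78.0, then Tead3 (1.37) at 67.3 and Tead2 (0.918) at 54.1. Counting every peak of each list gave 4.33 ± 0.165 peaks per 100 kb for Tead1, 4.15 ± 0 for Amotl2 and 3.69 ± 0.348 for Cyr61 (SD, n = 2 replicates). Tead4 had 2.89 ± 0.511, Wwtr1 2.81 ± 0.883 and Yap1 2.02 ± 0.259 by the same count. Tead3 had 1.83 ± 0.645, Tead2 1.15 ± 0.325 and Ctgf 0.492 ± 0.696. The replicate values of Tead1, Amotl2 and Cyr61 lay above those of the other 6 genes in both lists. From Tead4 down to Ctgf, the replicate ranges of neighbours in this order overlapped.

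**Figure D1:**
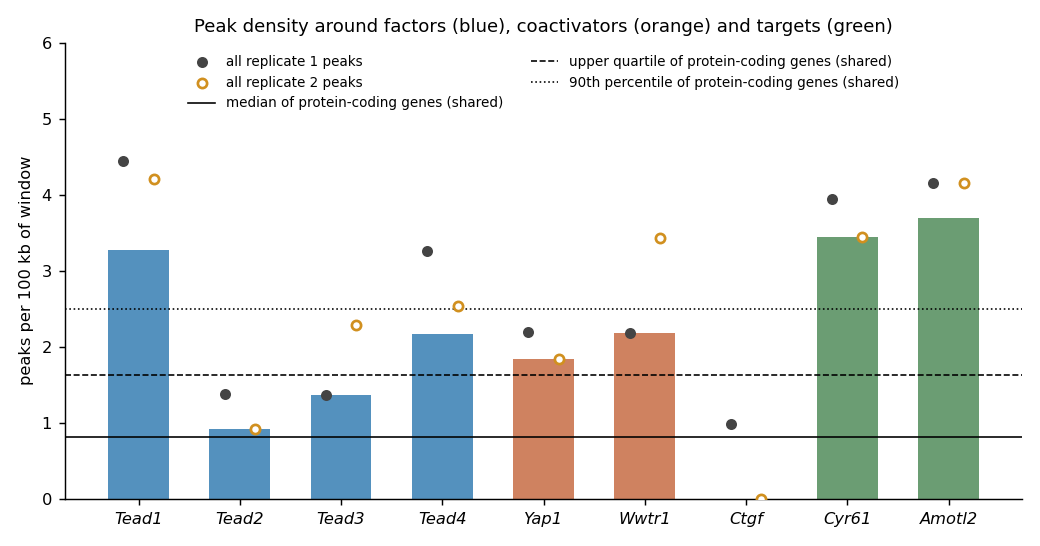
Peaks per 100 kb of window (y axis) for each gene (x axis), with bars for shared peaks and dots for all peaks of replicate 1 and replicate 2, and lines at the median, upper quartile and 90th percentile of shared peaks over protein-coding genes. The bars of Tead1, Cyr61 and Amotl2 stand above the 90th percentile of 2.50, and Ctgf has no bar.

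The values below are the fold enrichment over background that the peak caller gave each peak, with positions given in kb from the 5′ end of the gene and negative upstream of it. Over all shared peaks the median fold enrichment was 5.94 in replicate 1 and 6.44 in replicate 2. Over the 52 shared peaks of the 9 genes it was 6.88 in replicate 1 and 6.23 in replicate 2. The mean of both replicates ran from 2.60 to 23.9 per peak, and its median was 7.01 against 6.23 over all shared peaks. The summits of the 52 pairs lay a median of 15.5 bp apart, where the median over all pairs was 24 bp, and 47 were within 100 bp. Fold enrichment was higher in replicate 2 in 23 of the 52 pairs, and the ratio of replicate 2 to replicate 1 had a median of 0.961. Fold enrichment differed by 1.5 times or more in 3 pairs, of which 2 were at Cyr61 and 1 at Yap1, beside 11.9% of all pairs.

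**Figure D2:**
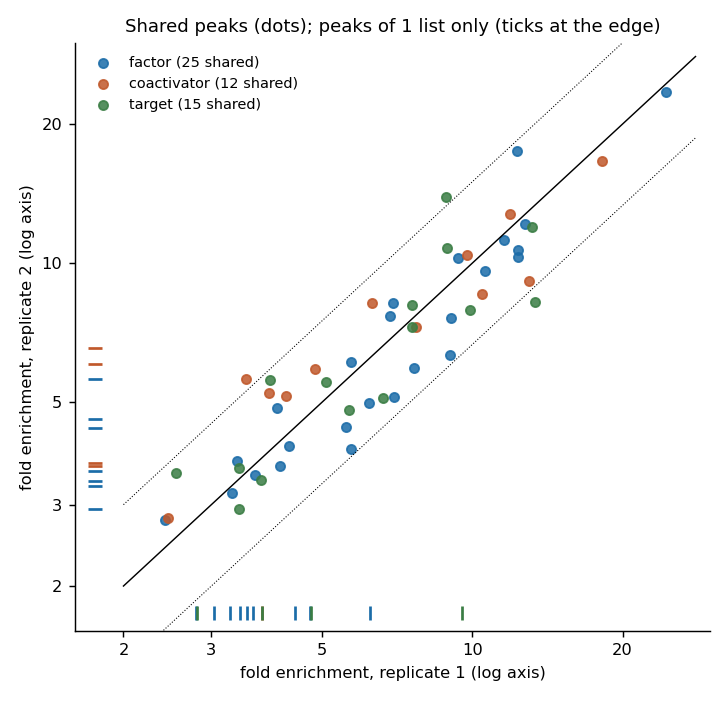
Fold enrichment in replicate 1 (x axis) and replicate 2 (y axis) on log axes, with a dot per shared peak coloured by the role of its gene, ticks at the edges for peaks of 1 list only, a solid line of equality and dotted lines at 1.5 times. The dots run along the line of equality, with 3 of 52 beyond the dotted lines, and the highest tick is the Ctgf peak at 9.53.

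Tead1 encodes one of the TEAD factors that carry YAP and TAZ to DNA (ENSMUSG00000055320.8, chr7:119822832-120050319, plus strand). It held the most peaks of the 9 genes, with 19 in replicate 1 and 18 in replicate 2, of which 14 were shared. Of all protein-coding genes, 0.492% (110 genes) had at least as many shared peaks. Its body of 227 kb is also the longest of the 9, and 11 of the 14 shared peaks lay in its introns, from 1.68 to 198 kb into the gene. The other 3 lay upstream at -15.8, -22.7 and -63.8 kb, and all 3 were strong, with mean fold enrichments of 10.1, 11.5 and 11.4. The intronic peaks had a median mean fold enrichment of 7.25 and ranged from 3.57 to 14.9. The strongest of them, at 144.6 kb, had a fold enrichment of 12.3 in replicate 1 and 17.5 in replicate 2. It is the peak shown above with an AP-1 string at its summit. No Tead1 peak lay in a promoter, meaning the stretch from 5 kb before to 1 kb past any annotated transcription start site (TSS) of the gene, although the gene has 11 such sites. For 13 of the 14 shared peaks no other protein-coding gene body was nearer.

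Tead4, the TEAD factor known for its part in the trophectoderm of the embryo (chr6:128174306-128250841, minus strand), had 9 peaks in replicate 1, 7 in replicate 2 and 6 shared. They included the strongest peak of all 9 genes, in a Tead4 intron at chr6:128231535-128232826, 18.5 kb from the 5′ end. Its fold enrichment was 24.4 in replicate 1 and 23.4 in replicate 2, which was percentile 98.9 of either list. This is the peak with the TFAP2, TEAD and TFAP2 sites side by side. A pair of shared Tead4 peaks lay in promoters. The one at the 5′ end, at -9 bp, had a fold enrichment of 4.29 in replicate 1 and 4.02 in replicate 2. The one at an internal TSS, 159 bp from it, had 5.70 and 3.96. Each promoter peak held 1 TFAP2 site, and both were far below the intronic peak in each replicate. A promoter peak at 21.9 kb was in replicate 1 only, with 3.53 and 2 TFAP2 sites. Of the remaining shared peaks, 2 lay in introns of the neighbouring gene Tulp3, and the stronger, at -38.3 kb, had 12.8 and 12.2.

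Tead3, a TEAD factor prominent in placenta (chr17:28468616-28487750, minus strand), had no peak in its own body or promoter. Its window held 3 peaks of replicate 1, all of them shared, and 5 of replicate 2. A pair of shared peaks lay upstream in an intron of Fkbp5, the gene of an immunophilin that binds steroid receptor complexes. The peak at -69.2 kb had a fold enrichment of 9.02 in replicate 1 and 6.34 in replicate 2, and the one at -64.4 kb had 7.63 and 5.94. The other shared peak, at 22.7 kb and 364 bp from the TSS of the ribosomal protein gene Rpl10a, had 6.22 and 4.98. All 3 were higher in replicate 1, and none held a TFAP2, TEAD or AP-1 string. In replicate 2 only, a peak 74 bp from the TSS of Fance had 5.61 and held 3 TFAP2 sites, and a peak in a Ppard intron at 103 kb had 2.93.

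Tead2, a TEAD factor known from early embryos and neural progenitors (chr7:52471123-52489005, plus strand), was likewise free of peaks in its body and promoter. The gene lies in a dense region, with 12 other protein-coding genes in its window. One of its 2 shared peaks lay 23 bp from the TSS of Pih1d1, at -61.4 kb, with a fold enrichment of 3.37 in replicate 1 and 3.72 in replicate 2. The other lay in a Trpm4 intron at 97.4 kb and had 6.96 and 5.13. A further peak, at 61.6 kb, was in replicate 1 only and had 2.79. Another gene body was nearer than Tead2 or Tead3 for each of their 5 shared peaks.

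**Figure D3:**
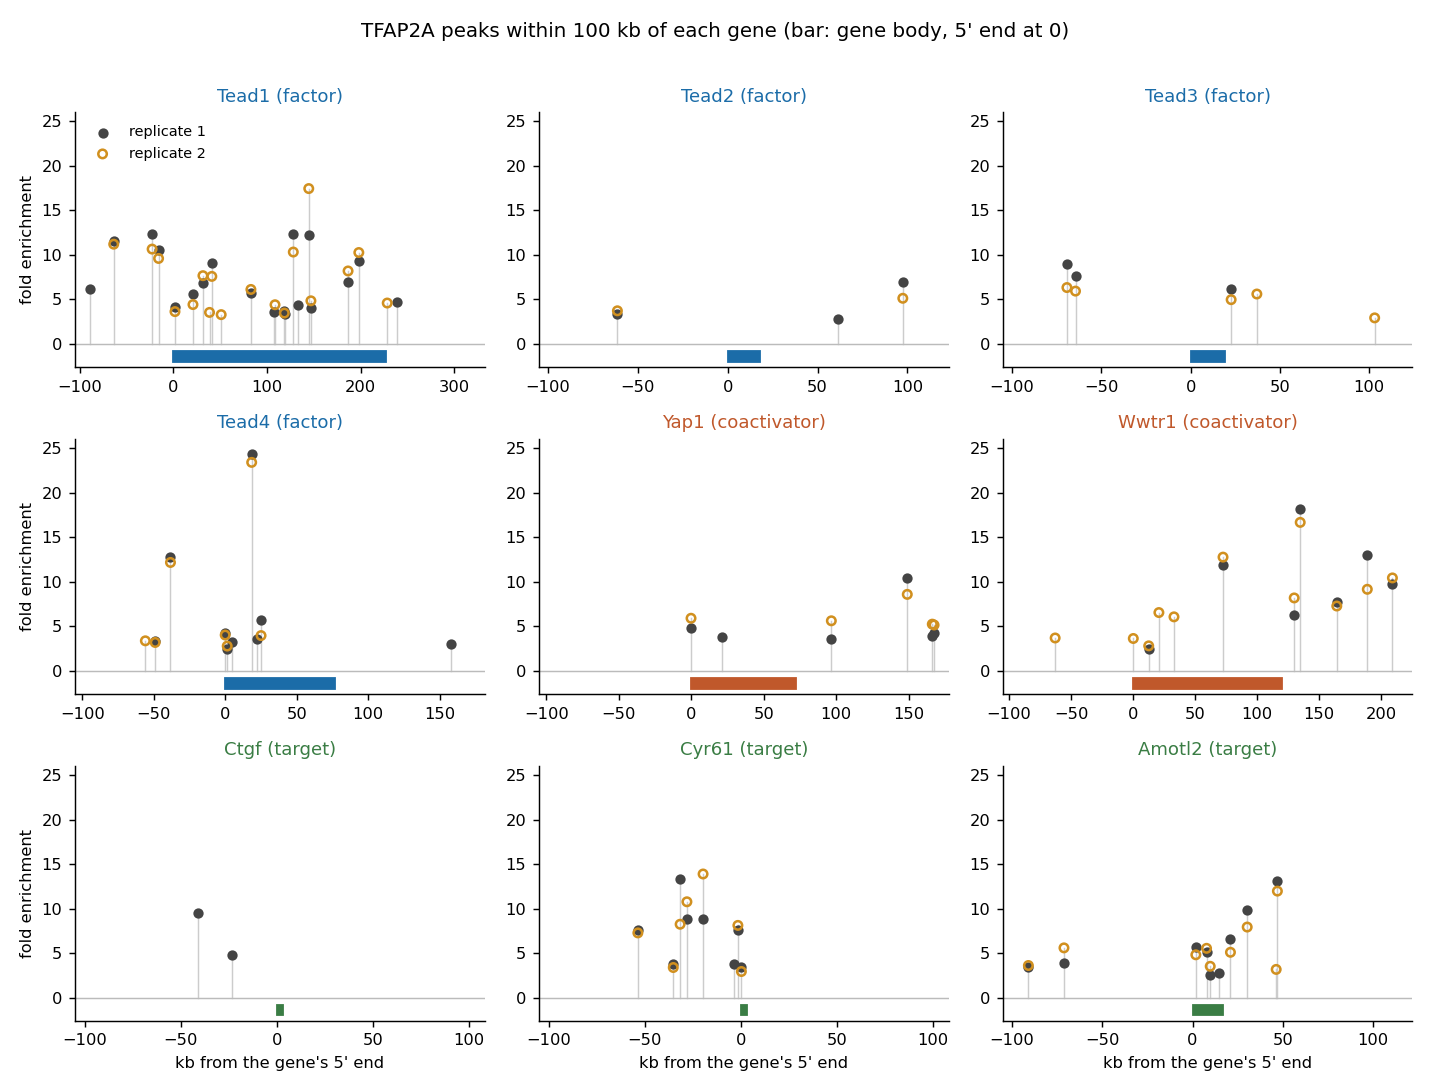
Fold enrichment (y axis) of every peak in the window of each gene against its distance in kb from the 5′ end of the gene (x axis), with filled dots for replicate 1, open circles for replicate 2 and a bar for the gene body. Peaks of Tead1 are spread along the gene, 6 of the 7 shared peaks of Cyr61 lie upstream of it, Tead2 and Tead3 have none in the body, and Ctgf has dots of replicate 1 only.

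Yap1 encodes YAP, the coactivator that the Hippo kinases hold in check (chr9:7931999-8004596, minus strand). It had 6 peaks in replicate 1 and 5 in replicate 2, and all 5 of the latter were shared. A shared peak lay at the 5′ end, at -102 bp, with a fold enrichment of 4.85 in replicate 1 and 5.90 in replicate 2. Within 50 bp of its summit were 3 overlapping TFAP2 sites in a GC-rich run and 1 TEAD string, printed above as CATTCC on the opposite strand. No shared peak lay inside Yap1 itself, and an intronic peak at 21.2 kb was in replicate 1 only, with 3.78. The other 4 shared peaks lay beyond its 3′ end. The strongest was in an intron of Birc3, an inhibitor of apoptosis, at 149 kb, with 10.4 in replicate 1 and 8.58 in replicate 2. The peak at 96.7 kb had 3.52 and 5.62, the one at 166 kb had 3.91 and 5.24, and the one at 168 kb, 64 bp from the TSS of C330006D17Rik, had 4.24 and 5.15. These 3 were higher in replicate 2, whereas the Birc3 peak was higher in replicate 1.

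Wwtr1 encodes TAZ, the second coactivator (chr3:57259571-57379832, minus strand). Its window held 7 peaks in replicate 1, all of them shared, and 11 in replicate 2. Its shared peaks were the strongest per gene by their median, 9.76 in replicate 1 and 9.16 in replicate 2. A group of 5 lay beyond the 3′ end, between 130 and 209 kb from the 5′ end, and for each of them another gene body was nearer than Wwtr1. Their mean fold enrichments ran from 7.24 to 17.4. The strongest, in a UTR of Tm4sf4, had 18.2 in replicate 1 and 16.7 in replicate 2. Of the 2 shared peaks within Wwtr1, the one printed above lay in an intron at 72.5 kb and had 11.9 and 12.8, with 2 TFAP2 sites. The other lay in an intron at 12.6 kb and had 2.46 and 2.80. A peak 78 bp from a Wwtr1 TSS, with 2 TFAP2 sites, appeared in replicate 2 only, with 3.63. Replicate 2 alone also had a peak at -62.9 kb (3.69) and intronic peaks at 20.8 kb (6.54) and 33.0 kb (6.06), and of replicate 2 peaks with a fold enrichment within 5% of the latter 2 values, 79.6% and 75.2% were shared.

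Among the targets, Cyr61 (CCN1), a secreted matrix protein (chr3:145309935-145312949, minus strand), had 8 peaks in replicate 1, 7 in replicate 2 and 7 shared. Cyr61 is short, 3.02 kb, and 6 of its 7 shared peaks lay upstream, between -1.56 and -53.6 kb. Neighbouring summits of the 7 lay a median of 5.99 kb apart, the smallest such spacing among the 8 genes with a shared peak, and Cyr61 was the nearest gene body for all 7. The peak at -19.7 kb had the highest mean, with a fold enrichment of 8.87 in replicate 1 and 13.9 in replicate 2. In replicate 1 alone the peak at -31.6 kb was the strongest, with 13.4 against 8.24 in replicate 2, so the replicates differed on which of them led. The peak at -28.1 kb lay between them with 8.88 and 10.8. The promoter held shared peaks at 266 bp, with 3.40 and 2.94, and at -1.56 kb, with 7.58 and 8.11, and a replicate 1 peak at -3.37 kb with 3.79. Within 50 bp of the summit, 2 of the 7 shared peaks held a TFAP2 site, and the peak at -53.6 kb held 2 TEAD strings. Neither shared promoter peak had a TFAP2 site in that window, although the one at 266 bp had a match centred 51 bp from its summit.

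Amotl2, a target whose product binds and restrains YAP (chr9:102619002-102635748, plus strand), had 9 peaks in either replicate, and 8 replicate 1 peaks were shared. It had more shared promoter peaks than any other of the 9 genes, 3 in all, but also the most annotated TSSs, 13. The peak 5 bp from an internal TSS had a fold enrichment of 5.66 in replicate 1 and 4.81 in replicate 2, and held 3 TFAP2 sites. The peak at 7.75 kb had 5.08 and 5.54, and the one at 9.78 kb had 2.55 and 3.52. These lay 1.89 and 1.88 kb from the nearest TSS, outside a promoter of 1 kb to each side. A promoter peak at 14.7 kb was in replicate 1 only, with 2.81. Beyond the 3′ end, 3 shared peaks lay at 21.0, 30.3 and 47.0 kb, with mean fold enrichments of 5.86, 8.91 and 12.6 in that order. The one at 47.0 kb, shown above, had 13.1 in replicate 1 and 12.0 in replicate 2. Counted from replicate 1, all 8 shared Amotl2 peaks held a TFAP2 site, whereas none of the 3 at Tead3 did. A further replicate 2 peak at 46.3 kb, inside the replicate 1 peak at 47.0 kb, had a fold enrichment of 3.17 and no TFAP2 site.

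Ctgf (CCN2), a secreted matrix protein often used as the readout of YAP activity (chr10:24315248-24318489, plus strand), had no shared peak. Both its peaks lay upstream and in replicate 1 only, where the one at -41.1 kb had a fold enrichment of 9.53 and the one at -23.1 kb had 4.75. The replicate 2 list was empty over this window, and its nearest peak lay 99.1 kb from the stronger Ctgf peak. A peak of 9.53 rarely went unmatched. Of 736 replicate 1 peaks with a fold enrichment within 5% of it, 98.9% were shared, and it ranked 5 among the 2394 peaks of replicate 1 only. Of all protein-coding genes, 1.64% (366 genes) had peaks in replicate 1 and none in replicate 2. The sequence at its summit held an AP-1 string and no TFAP2 site. Whether TFAP2A was absent there in the second experiment or fell below the calling threshold cannot be told apart from the lists.

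Set side by side, the factors had 34 peaks in replicate 1 and 32 in replicate 2, with 25 shared. The coactivators had 13 and 16, with 12 shared, and the targets 19 and 16, with 15 shared. The median fold enrichment of shared peaks was 6.93 in replicate 1 and 6.12 in replicate 2 for the factors, 7.0 and 7.73 for the coactivators, and 6.62 and 5.59 for the targets. The replicate ranges of factors and targets overlapped, and that of the coactivators lay just above both. With peaks taken only for their nearest gene body the coactivators were instead lowest, with a median mean fold enrichment of 4.97 against 7.25 for factors and 7.41 for targets, and this left 4 of their 12 shared peaks. The quartiles of the mean fold enrichment overlapped among all 3 roles, at 4.45 and 10.1 for factors, 4.66 and 10.3 for coactivators, and 4.17 and 9.37 for targets. By the median density of its genes, the target group was highest with 3.45 shared peaks per 100 kb, against 2.01 for coactivators and 1.77 for factors. That median rests on Cyr61 and Amotl2, since Ctgf had none. Taken only for the nearest gene body, the medians were 2.77, 0.679 and 0.723 in the same order. With a window of 10 kb they were 8.69, 1.61 and 3.35, so that both settings put factors above coactivators. Factors were also above coactivators with a window of 50 kb, 2.12 against 1.71, and without replicate 2, 2.32 against 2.19. The other settings tried kept coactivators above factors. In the upper 50% of each list by fold enrichment the coactivators were highest, with 1.12 against 0.923 for targets and 0.818 for factors. That target value was the density of Amotl2, which had 3.69 with all peaks of both lists. Pooled over their windows, the roles had 2.41, 2.02 and 2.19 shared peaks per 100 kb for targets, coactivators and factors. With 2 to 4 genes per role, the difference between roles was not tested.

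Where the shared peaks lay is given by role as counts, which were not tested and depend on the length of the bodies. No share over all protein-coding genes stands beside the body, downstream and nearest gene body counts, so they describe these genes only. In gene bodies were 14 of 25 for the factors, 2 of 12 for the coactivators and 4 of 15 for the targets. Downstream of the gene were 2 of 25 for the factors, 9 of 12 for the coactivators and 3 of 15 for the targets. The gene itself was the nearest gene body for 17 of 25 shared peaks of the factors, 4 of 12 of the coactivators and 13 of 15 of the targets. Tead1 alone gave 11 of the 14 in factor bodies, and the other 3 factors had 3 of 11. Of the shared coactivator peaks, 5 of 7 for Wwtr1 and 4 of 5 for Yap1 were downstream. Counting every replicate 2 peak, 5 of the 11 at Wwtr1 were downstream and 5 in the body, which made 5 of 16 in coactivator bodies. A shared promoter peak was found at 4 of the 9 genes (Tead4, Yap1, Cyr61 and Amotl2), beside 17.0% of protein-coding genes. The 8 shared promoter peaks had a median mean fold enrichment of 5.03, with 6 holding a TFAP2 site, and the other 44 had 7.45.

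Sites for TFAP2, TEAD and AP-1 were looked for on either strand, up to 50 bp from the summit. A TFAP2 site was found in 32 of the 52 shared peaks, or 61.5% (95% exact binomial interval 47.0 to 74.7), beside 57.1% of all shared peaks. In flanking windows, equally long and centred 400 bp away on either side, the values were 12.5% for the 9 genes and 15.3% for all shared peaks. By role, 15 of 25 shared peaks of the factors, 7 of 12 of the coactivators and 10 of 15 of the targets had one. The interval of the 9 genes held the value of all shared peaks, so a difference from them was not detectable with 52 peaks. Intervals cover counting error over peaks only, and peaks of 1 gene are not independent.

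The TEAD string was found in 8 of the 52 peaks, or 15.4% (6.88 to 28.1), beside 10.5% of all shared peaks. Its flanks had 10.6% around the 9 genes and 5.54% overall. The 8 peaks lay at Tead1 (3), Tead4, Yap1, Wwtr1, Cyr61 and Amotl2, which are genes of all 3 roles. The interval held the value of all shared peaks, so here too a difference was not detectable. In 6 of the 8 a TFAP2 site lay in the same window. The AP-1 string was found in 5 of 52, or 9.62% (3.20 to 21.0), beside 8.30% of all shared peaks. They were 3 peaks of Tead1, 1 of Tead2 and 1 of Yap1. None of the 15 shared target peaks had one, which allows a share of up to 21.8% by the same interval. With 100 bp to each side the AP-1 share was 6.67% for the targets and 21.2% for the 9 genes. The AP-1 flanks had 1.92% around the 9 genes and 2.93% overall.

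**Figure D4:**
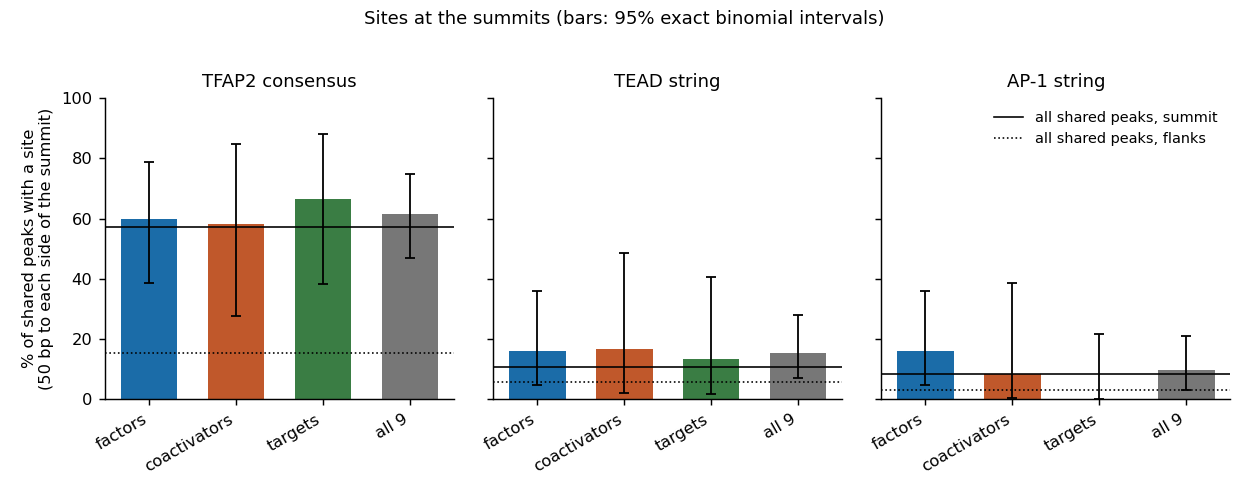
Percentage of shared peaks (y axis) with a TFAP2, TEAD or AP-1 string within 50 bp of the summit for factors, coactivators, targets and all 9 genes (x axis), with 95% exact binomial intervals as error bars, a solid line for all shared peaks and a dotted line for their flanks. For TFAP2 the 9 genes are at 61.5% and the solid line at 57.1%, and for AP-1 the targets are at 0 of 15.

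Further genes of the pathway were taken from 2 lists, of 21 upstream regulators and cofactors and of 19 other YAP targets. Lats2 and Ptpn14 were in both, so there were 38 distinct genes, of which 32 (84.2%) had a shared peak in the window, beside the 71.7% of protein-coding genes given above. A shared promoter peak was found at 12 of the 38 (31.6%), beside 17.0%. The median density was 1.45 shared peaks per 100 kb for the upstream regulators and 1.43 for the other targets, both below the 2.17 of the 9 genes and above the 0.816 of all genes. Of the upstream regulators 17 of 21 had a shared peak and 8 a shared promoter peak. Of the other targets 17 of 19 and 5 had one.

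Promoter peaks with a mean fold enrichment over 8 occurred at 4 genes. Ajuba, a LIM protein that binds LATS kinases (listed as Jub), had 10.7 in replicate 1 and 10.3 in replicate 2. The LATS kinases phosphorylate YAP and TAZ directly. The promoter peak of Lats1 had 9.45 and 9.80, while that of Lats2, 24.3 kb into the gene, had 7.61 and 8.64. Vgll4, which competes with YAP for TEAD factors, had 9.93 and 7.92 at its promoter and the highest density of the 38 genes, 3.88 shared peaks per 100 kb. Each of these peaks was stronger in both replicates than the shared promoter peaks of Tead4, Yap1 and Amotl2, but the Cyr61 peak at -1.56 kb, with 7.58 and 8.11, was above Vgll4 in replicate 2.

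In their whole windows, Lats1 had the strongest peak of the 38 genes by the mean of both replicates, 37.7 kb from the 5′ end and beyond its 3′ end, with 24.8 in replicate 1 and 21.3 in replicate 2. Rbms3, a target that encodes an RNA-binding protein, had 24.3 and 21.7 at an intronic peak 541 kb into the gene, so it was the higher of both in replicate 2. Sav1, the scaffold of the kinase module, was next by the mean, with 21.4 and 19.0 at 98.5 kb, downstream. In replicate 2 the strongest peaks of Fat4 (20.8) and Dock5 (20.5) were above that of Sav1. For comparison, the intronic Tead4 peak had 24.4 and 23.4. There was no shared peak for Stk3, the gene of an MST kinase, with 0 peaks in replicate 1 and 2 in replicate 2, nor for Amot with 0 and 1. Igfbp3, a target, had 2 and 0, the same pattern as Ctgf. The TEAD cofactors Vgll1 and Vgll2 and the target Foxf2 had no peak in either list.

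**Figure D5:**
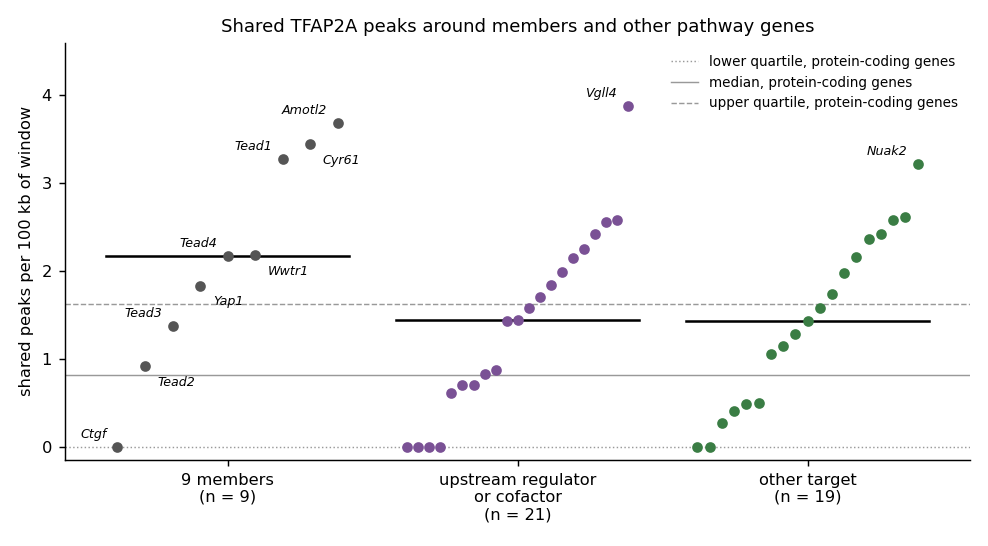
Shared peaks per 100 kb of window (y axis) for the 9 genes, 21 upstream regulators and cofactors and 19 other targets (x axis, each dot a gene, sorted), with the median of each group as a black bar and the quartiles of protein-coding genes as grey lines. The group medians are 2.17, 1.45 and 1.43, all above the protein-coding median of 0.816, and each group has genes at 0.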

How the data were processed

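TFAP2A ChIP-seq of melan-a cells was sequenced from 2 ChIP experiments and 1 input. For each ChIP replicate, the authors deposited a separate list of peaks, not pooled over replicates; no list was used for the input. The submitters' processing notes name BWA, MACS 1.4.2 and mm9, with no parameters. The deposited lists give each peak's fold enrichment (a ratio to background), -log10 p, -log10 q and a score, which equals 10 times the -log10 p without its decimals and was not used. The lowest -log10 q was 2.64 in both lists, and sequencing depth is unknown.

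Genes came from GENCODE mouse version 1 (NCBIM37, the assembly of mm9), and sequences from the same assembly. Peaks off the assembled chromosomes (38 and 42) were left out of all counts by gene and of the background. Shared peaks overlapped by at least 1 bp and keep the replicate 1 summit; pairs are each other's largest overlap, and their fold enrichments were compared. Values of neighbouring genes are shared where windows overlap. A 9-base palindrome such as GCCTCAGGC counts as 2 TFAP2 sites, so peaks with a site are counted for shares. Percentiles are the share of all protein-coding genes, or of a list, at or below a value. Intervals are exact Clopper-Pearson.

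Named were all 9 genes, the strongest shared peak and the shared promoter peaks of each, every peak of genes with up to 6, pathway genes with a promoter mean over 8, the 3 with the strongest peak and those with no shared peak. Other peaks were chosen after their values were seen. The genes and lists were chosen with earlier results of these data known. Alternatives concerned the threshold, overlap rule, window, gene assignment, counting side, promoter, site strings and leaving out a replicate. Python 3.11.15, numpy 2.4.6, pandas 2.3.3, scipy 1.17.1, matplotlib 3.10.9, pysam 0.24.0 and samtools 1.23.1 were used. On simulated data, all 5000 peaks were classed correctly as shared or not, and all 3500 planted pairs and 2000 planted sites were recovered.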

Additional observations from a re-analysis of the deposited data

How the results depend on the processing

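The lists hold only called peaks, so a weak peak in one list and no peak in the other can differ little, and the input gave no values. With 2 experiments of 1 line, spread between cultures is barely measured. A window of 100 kb assigns peaks by distance alone.

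Keeping the upper 50% of each list by fold enrichment left 33.5 peaks per list, 28 shared, 0.913 shared peaks per 100 kb, a median fold enrichment of 9.96, 1 gene with a shared promoter peak, and TFAP2 and TEAD sites in 53.6% and 17.9%. A window of 10 kb gave 33.5, 26 and 2.56 in the same order, a median of 5.49 and TFAP2 sites in 69.2%, and the strongest peak was the one given above for 2 genes. A window of 50 kb kept it for 5 genes, with TFAP2 and TEAD sites in 64.1% and 12.8%. Ranking by -log10 p also kept it for 5. Taking peaks only for the nearest gene body left 34 shared, with sites in 67.6% and 17.6%. The density was 1.87 with a -log10 q of at least 5 and with summits within 100 bp, and TFAP2 sites then stood in 66.0% under the latter. Counting from replicate 2 gave TFAP2 sites in 64.2%. Windows of 100 bp gave TFAP2, TEAD and AP-1 strings in 71.2%, 19.2% and 21.2%, and the longer GCCNNNGGC and GGAATGT stood in 19.2% and 7.69%. Without one replicate, with every peak of the other list counted, the median fold enrichment was 5.61 to 5.70, the density 2.20 to 2.53, and TFAP2 and TEAD sites stood in 59.1% to 62.5% and 12.5% to 15.2%. Fewer peaks or longer strings lower these counts by construction; other causes were not tested. The order of the roles by median fold enrichment was as reported in 7 of 10 alternatives. Among these, counting from replicate 2 used the same pairs, so it could not change the order. The order changed with a window of 50 kb, the nearest gene body and without replicate 1. Targets had the highest median density in 9 of 10, the exception being the upper 50%.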

Other observations

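Among the 52 shared peaks of the 9 genes, the 20 without a TFAP2 site had a median fold enrichment of 7.67 in replicate 1 and 7.27 in replicate 2. The 32 with a site had 6.0 and 5.75. They included 6 of the 8 shared promoter peaks, whose median mean fold enrichment was 5.03 against 7.45 for the other 44. No such values over all shared peaks stand beside these. The 14 peaks with a mean fold enrichment over 10 lay at 5 of the genes, and 8 of them held a TFAP2 site. These values were compared after they were seen, and no test was run on them.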
